A study of Mus musculus with 6 samples.

Results

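The genes described here encode receptor chains for IL-3, IL-5, GM-CSF, TSLP, IL-33, IL-18 and IL-4. They are 10 of the 55401 Ensembl genes in a table of RNA-seq counts from 6 mouse libraries: Il3ra, Il5ra, Csf2ra, Csf2rb, Csf2rb2, Crlf2, Il7r, Il1rl1, Il18r1 and Il4ra. They were taken by name, and each matched 1 row of the table.

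The libraries form set A and set B, with 3 in each, and are labelled as basophils from wild-type (WT) mice. In the study's dermatitis model the vitamin D analogue MC903 (2 nmol in 10 µL of ethanol) was put on both ears daily (days 0 to 6), with ethanol alone for control mice. The sources used here do not give which set is which, nor the age and strain of the mice, so differences are signed as B over A. The sort took live CD45+ cells without lineage markers that were positive for CD49b and for FcεRIα or IgE. Blood is the tissue in the library labels and ear skin in the design text, which was not resolved here. The labels speak of pooled RNA and name no separate animals, so a p-value here reflects how far the libraries of a set spread, and that spread may be technical.

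Defining basophil markers went against the label in set A. The 8 markers examined (Mcpt8, Prss34, Fcer1a, Ms4a2, Cpa3, Cd200r3, Gata2 and Itga2) summed to 1.71 to 118 CPM (the count scaled to a library total of 1000000) in A and to 1090 to 2524 CPM in B. Of these, 5 were higher in every B library than in every A library, as were 10.2% of the 9196 genes tested, and Itga2 was at 0 in all of A. Mcpt8 and Prss34 were the only genes tested with an adjusted p under 0.05 by edgeR (0.0125 and 0.0155). Both also passed by DESeq2, and neither did by limma-voom (adjusted p = 0.614 and 0.308). Gata2 went the other way, with means of 53.9 CPM across A and 22.9 in B and overlapping sets. It had the highest mean of the 8 markers in A. Monocyte markers summed to 34433 to 41855 CPM across A and 24303 to 33212 CPM in B. Most of that sum was Lyz2 (34811 ± 4295 CPM across A, 25001 ± 4110 in B), which neutrophils express too. The means of Cx3cr1, Adgre1, Ms4a6c and Fn1 were higher in B with overlapping sets. Those of Ly6c2 (267 CPM across A, 124 in B), Ccr2 (72.3 and 58.6) and Nr4a1 (861 and 768) were lower in B. Lyz2 and Ly6c2 were higher in every A library than in every B library, as were 3.91% of the genes tested. In bulk libraries such as these, fewer cells of a type and less RNA per cell cannot be told apart. Total counts were 46137963 to 63956911 per library, and 3 counts, taken as the floor of detection, corresponded to 0.0469 to 0.0650 CPM. Genes with at least 1 count numbered 9242 to 11281 in A and 11141 to 14066 in B, with the most in B3 (set B, replicate 3).

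These receptors work as pairs of chains. Receptors for IL-3, IL-5 and GM-CSF join a private alpha chain (Il3ra, Il5ra or Csf2ra) to a shared beta chain, Csf2rb, and mice carry an additional beta chain, Csf2rb2, that serves IL-3 alone. They signal through JAK2 and STAT5, and IL-3 is the main growth and survival factor of basophils. The TSLP receptor is Crlf2 with Il7r, the IL-33 receptor is Il1rl1 (ST2) with Il1rap, and the IL-18 receptor is Il18r1 with Il18rap. The last pair of receptors signals through MyD88. Il4ra pairs with Il2rg, or with Il13ra1, and acts through STAT6.

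The beta chain genes are close copies that neighbour each other on chromosome 15, so the sequences that separate them are shown first. Their coding sequences (GENCODE M21 transcripts, GRCm38) were 2688 bases for Csf2rb and 2634 bases for Csf2rb2, without the stop codon, and 95.2% of 2628 aligned bases were identical. The most different ungapped stretch of 90 bases held 16 differences, at coding bases 308 to 397 of Csf2rb and 311 to 400 of Csf2rb2. It is printed 5′ to 3′ with the differing bases in capitals.
Csf2rb: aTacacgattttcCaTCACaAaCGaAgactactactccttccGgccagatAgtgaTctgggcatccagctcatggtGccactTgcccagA
Csf2rb2: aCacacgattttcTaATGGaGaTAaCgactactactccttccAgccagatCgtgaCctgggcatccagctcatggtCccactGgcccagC
The longest identical run was 242 bases, at coding bases 2083 to 2324 of both, and its start (bases 2083 to 2202) shows what a read from there would hold in either gene.
Csf2rb and Csf2rb2: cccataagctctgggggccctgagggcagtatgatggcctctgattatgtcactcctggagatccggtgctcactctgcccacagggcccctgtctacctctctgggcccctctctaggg

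Reads were 150 bases long, per the labels' protocols. Of the 150-base windows in the protein-coding transcripts of Csf2rb, 165 of 5119 (3.22%) were found unchanged in Csf2rb2. In Csf2rb2, the same 165 windows were 3.48% of 4739. The other 8 genes shared 0 such windows with any other gene's transcripts, on either strand. The sources used here do not say how reads that fit both beta chains were counted, so the split between Csf2rb and Csf2rb2 is uncertain. These windows cover exact matches of the full read length alone, so they do not bound the share of reads that fit both.

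**Figure D1:**
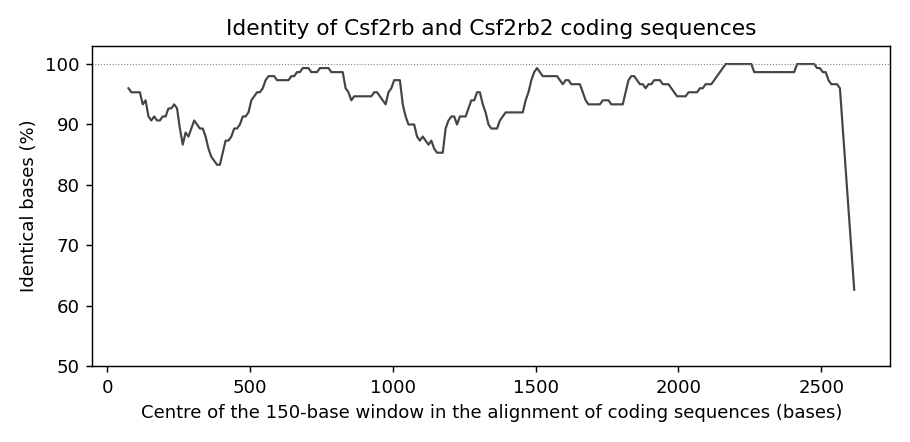
Share of identical bases (%, y axis) in 150-base windows moved by 10 bases along the alignment of the Csf2rb and Csf2rb2 coding sequences (x axis, bases), with gaps counted as differences. The median window was 95.3% identical, and some windows near the 3′ end reached 100%. The low value at the right edge, 62.7%, is where the shorter sequence has a gap.

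Csf2ra, the private chain of the GM-CSF receptor (ENSMUSG00000059326), was found in every library. Its level was 219, 155 and 231 CPM in A1, A2 and A3, and 184, 318 and 293 CPM in B1, B2 and B3. The sets overlapped, because B1 lay inside the range of A. The means were 202 ± 41.2 CPM across A and 265 ± 71.2 in B (SD, n = 3 each), and the log2 fold change was 0.29 with an SE of 0.38 (edgeR's quasi-likelihood test, adjusted p = 1.00). Per length it was the most abundant member, at 81.2 ± 21.8 CPM per kilobase of exon (SD, n = 6 libraries), and its range lay wholly above that of the next gene, Crlf2.

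Il3ra, the private chain of the IL-3 receptor (ENSMUSG00000068758), was uneven. In A1, A2 and A3 it had 2, 2267 and 40 counts (0.0363, 42.9 and 0.867 CPM), and in B1, B2 and B3 it had 0, 0 and 596 (9.32 CPM). It was thus high in A2, lower in B3 and under 1 CPM in the other 4 libraries, and the sets overlapped. The log2 difference of -2.26 had an SE of 3.55 (edgeR adjusted p = 1.00), and without A replicate 2 it was 2.79.

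Il5ra, the private chain of the IL-5 receptor (ENSMUSG00000005364), was the only member whose sets did not overlap. It had 0 counts in all of A and 189, 114 and 98 counts in B1, B2 and B3, which is 3.80, 1.93 and 1.53 CPM. Every B library was above every A library, as were 10.2% of the 9196 genes tested. Against a floor of 3 counts per library, Il5ra was at least 41.2-fold higher in B, or at least 10.3-fold higher if a single read pair counted 4 times. The fitted log2 difference of 9.99 depends on the prior count and is no bound. It did not pass over all genes by edgeR (adjusted p = 0.508), while DESeq2 (adjusted p = 5.44e-07) and limma-voom (adjusted p = 0.0481) called it. The stricter filter removed Il5ra, and over the other settings its adjusted p from edgeR, DESeq2 or limma-voom ran from 5.44e-07 to 0.998. With the replicate number as a block, edgeR's log2 difference was 9.93 (adjusted p = 0.998).

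The basophil marker sum given above was also higher in every B library than in every A library. In A1, A2 and A3 it was 1.71, 58.7 and 118 CPM while Il5ra was at 0, and both fell from B1 to B3. The part of basophils in the Il5ra counts was not tested. Eosinophils, and a class of B cells, are known to carry the IL-5 receptor too. The 8 eosinophil markers summed to 866 to 1622 CPM across A and 447 to 1027 CPM in B, and their granule genes Epx and Prg2 were at 0 in all 6 libraries. Nearly all of that sum was Ear2, at 853 to 1621 CPM across A and 380 to 1021 CPM in B. Among the other markers of the list, Siglecf, a surface lectin of eosinophils, was at 66.2 CPM in B1, 0.173 CPM in A3 and 0 in the rest. Alox15, a lipoxygenase, was at 30.5 CPM in B2 alone. Ccr3 (means of 4.22 CPM across A and 1.80 in B), Ear1 (0.642 and 0.403) and Ear6 (0.0252 and 0) had lower means in B with overlapping sets. The 7 B cell markers summed to 1736 to 3062 CPM across A and 2104 to 2737 in B, with the sets overlapping. The part of these cells in the Il5ra counts was not tested.

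The beta chains differed from library to library in which of the pair was counted. Csf2rb (ENSMUSG00000071713) had 9, 1076 and 137 counts in A1, A2 and A3 (0.163, 20.4 and 2.97 CPM), and 13, 329 and 1255 in B1, B2 and B3 (0.261, 5.56 and 19.6 CPM). Csf2rb2 (ENSMUSG00000071714), the chain for IL-3 alone, had 0, 8 and 1072 counts in A (0, 0.151 and 23.2 CPM) and 3260, 2023 and 516 in B (65.5, 34.2 and 8.07 CPM). Csf2rb was highest in A2 and B3, and Csf2rb2 was highest in B1 and B2. The log2 differences were 0.07 for Csf2rb (with SE 2.24, edgeR adjusted p = 1.00) and 2.19 for Csf2rb2 (with SE 2.83, edgeR adjusted p = 1.00).

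Csf2rb2 made up 0.738% of the beta chain counts in A2, 88.7% in A3, 99.6% in B1, 86.0% in B2 and 29.1% in B3. The 95% Wilson intervals, which cover counting error only, were 0.374 to 1.45%, 86.8 to 90.3%, 99.3 to 99.8%, 84.6 to 87.4% and 27.1 to 31.3% in that order. In A1 it was 0 of 9 counts, which leaves an upper bound of 29.9%. These limits take each count as a separate read pair. If a pair counted several times, the intervals would be wider and the bound for A1 higher. Within B the shares ran from 29.1 to 99.6%, and in the A libraries other than A1 they were 0.738 and 88.7%. Among the libraries with over 1000 beta chain counts, the intervals of A3 and B2 were the only ones that met. The mean share was 29.8% ± 51.0 across A and 71.6% ± 37.4 in B (SD, n = 3 each), a difference of 41.8 percentage points (2-sided exact permutation p = 0.3, where 3 against 3 cannot go below 0.1). Without A replicate 3 the difference was 71.2 points (exact permutation p = 0.2), and without B replicate 3 it was 63.0 (exact permutation p = 0.4). It was smaller without any of the other libraries. Without A replicate 1 or 2 it was 26.9 or 27.2 points (exact permutation p = 0.6 for each). Without B replicate 1 or 2 it was 27.8 or 34.6 (exact permutation p = 0.6 and 0.4).

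Added together, a sum chosen after the values were seen, the beta chains reached 0.163, 20.5 and 26.2 CPM in A1, A2 and A3, and 65.8, 39.8 and 27.7 CPM in B1, B2 and B3. All 3 B values were above all 3 A values, B3 by a narrow margin over A3. The means were 15.6 ± 13.7 CPM across A and 44.4 ± 19.5 in B (SD, n = 3 each, 2-sided exact permutation p = 0.1, the smallest that 3 against 3 allows).

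**Figure D2:**
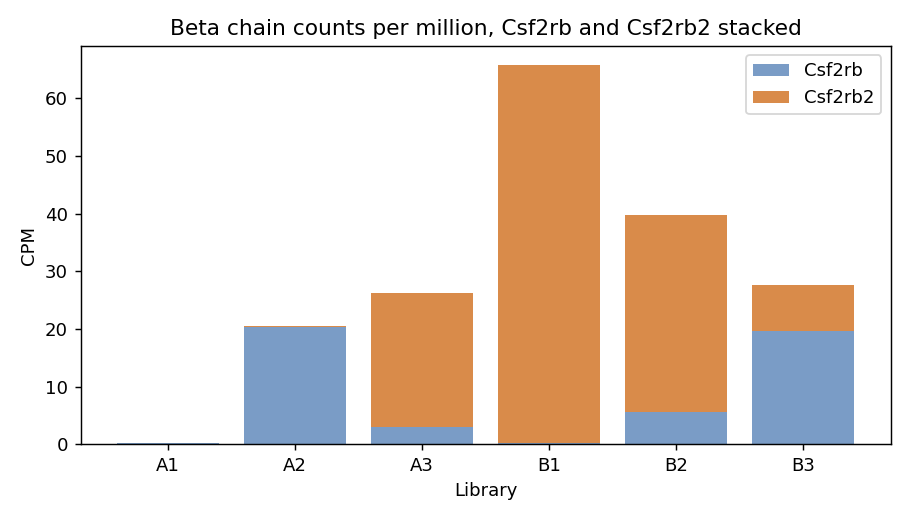
Stacked bars of CPM (y axis) for Csf2rb and Csf2rb2 in each of the 6 libraries (x axis). Csf2rb makes up nearly all of the A2 bar and Csf2rb2 nearly all of the B1 bar, while A1 has almost none of either.

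Crlf2, the TSLP-binding chain (ENSMUSG00000033467), and Csf2ra were the members at 1 CPM or more in all 6 libraries. Crlf2 was at 50.5, 43.5 and 69.0 CPM in A1, A2 and A3, and at 23.5, 53.1 and 70.5 CPM in B1, B2 and B3. B1 was the lowest and B3 the highest of the 6, so the range of B enclosed that of A. The log2 difference was -0.23 (with SE 1.13, edgeR adjusted p = 1.00), and 0.083 without B replicate 1.

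Its partner Il7r (ENSMUSG00000003882), which also forms the IL-7 receptor, was counted in few libraries. Il7r had 2774, 4 and 0 counts in A1, A2 and A3 (50.3, 0.0757 and 0 CPM) and 0, 8 and 495 in B1, B2 and B3 (0, 0.135 and 7.74 CPM). Only A1 and B3 stood above 1 CPM, and the filter on low counts removed the gene before testing. T cells are a well-known source of Il7r. Their 10 markers summed to 809, 1195 and 823 CPM in A1, A2 and A3, and to 555, 337 and 304 CPM in B1, B2 and B3. Cd4 was at 0 in all 6 libraries, and 3 of the 10 were higher in every A library than in every B library, beside 3.91% of the genes tested. Thy1 was higher in every B library (2.41 ± 2.31 CPM across A, 20.3 ± 7.32 in B, SD, n = 3 each), as were 10.2% of the genes tested. The part of T cells in the Il7r counts was not tested.

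Il1rl1 (ENSMUSG00000026069), the chain that binds IL-33, had 0 counts in all 6 libraries and was not tested. At this depth a count of 0 allows up to 0.0469 to 0.0650 CPM, a limit for counting error only, with each count taken as a separate read pair. Il1rap, the chain it pairs with, was at 0, 36.1 and 65.6 CPM in A1, A2 and A3, and at 27.4, 14.7 and 10.9 CPM in B1, B2 and B3. Mast cells and ILC2 are known for high Il1rl1. Of 6 mast cell markers, Kit, Mcpt4 and Mrgprb2 were at 0 throughout, and of 6 ILC2 markers Il2ra and Areg were. The mast cell sum was 0.151 to 117 CPM across A and 0.135 to 78.0 in B, and the ILC2 sum 0.0757 to 47.9 in A and 0.161 to 117 in B. On average nearly all of the mast cell sum was Cma1 (means of 71.9 CPM across A and 36.3 in B). Tpsb2 and Tpsab1 were at means of 0.0494 and 0.0242 CPM across A and at 0 in B.

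Il18r1 (ENSMUSG00000026070), the IL-18-binding chain and the neighbour of Il1rl1 on chromosome 1, was counted where Il1rl1 was not. It had 7092, 0 and 0 counts in A1, A2 and A3 (129, 0 and 0 CPM) and 1919, 2440 and 808 in B1, B2 and B3 (38.6, 41.3 and 12.6 CPM). It was therefore in all of B and in 1 library of A, which held the highest level of the 6. The log2 difference was -0.71 (with SE 3.12, edgeR adjusted p = 1.00), and its sign rested on A1: all the A libraries that remain without it were at 0. With a replicate block the difference was 10.26 (adjusted p = 0.998 by edgeR). NK cells also carry Il18r1, and the 7 NK cell markers summed to 1165, 525 and 959 CPM in A1, A2 and A3, and to 920, 548 and 527 CPM in B1, B2 and B3. A1 was highest in both Il18r1 and the NK sum, A3 had 0 counts of Il18r1 and the next NK sum, and the part of NK cells was not tested.

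Il4ra (ENSMUSG00000030748), the chain shared by the receptors for IL-4 and IL-13, was high in a single library of each set. It had 10, 8976 and 6 counts in A1, A2 and A3 (0.181, 170 and 0.130 CPM) and 0, 4 and 3271 in B1, B2 and B3 (0, 0.0676 and 51.1 CPM). Those libraries, A2 and B3, were also the ones with the most Il3ra and the most Csf2rb. The filter on low counts removed Il4ra before testing.

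**Figure D3:**
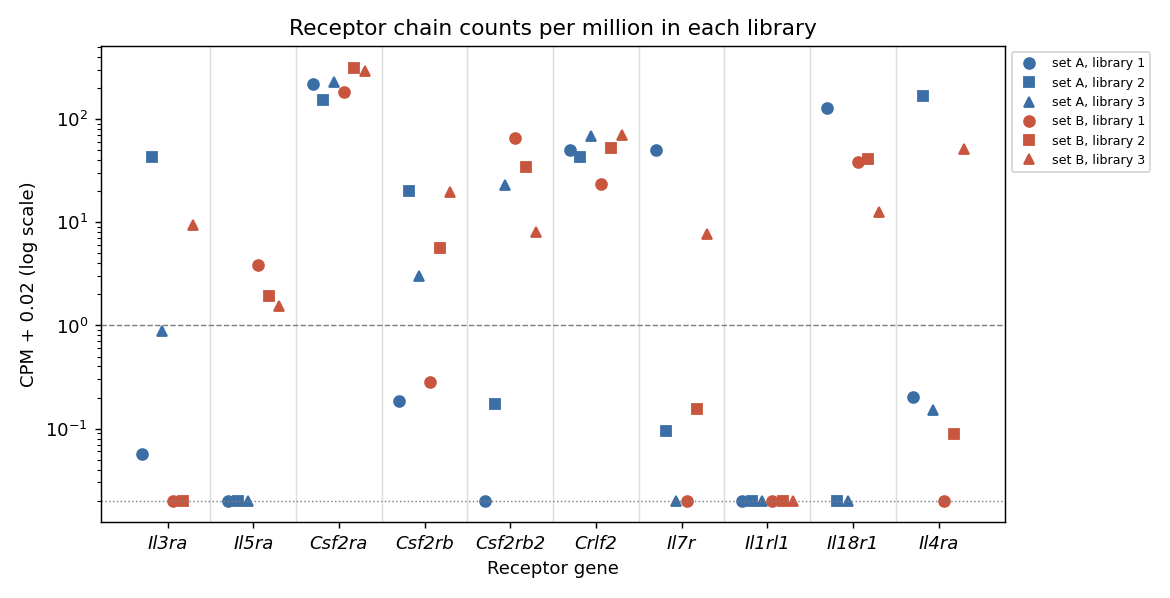
CPM of each receptor gene (x axis) in each library (points, coloured by set and shaped by replicate), on a log axis after adding 0.02 so that 0 can be drawn (dotted line). The dashed line is 1 CPM. Csf2ra and Crlf2 stay within a narrow band in all 6 libraries, Il5ra separates the sets at a low level, and most other genes are split between libraries well above 1 CPM and libraries near 0.

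This splitting was common among genes of like abundance. Of the 60 values (10 genes in 6 libraries), 27 were under 1 CPM and 17 were at 0. For the 8 members whose mean lay at 1 to 100 CPM, 43.8% of 48 values were under 1 CPM, beside 47.7% for all 10832 genes of the table with such a mean. The share among the receptors was thus near that of the table. Among values of 1 to 20 counts in the whole table, 45.6% were multiples of 4, and of the 9 such values among the members 4 were.

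Per kilobase of exon, the order of mean level over the 6 libraries after Csf2ra was Crlf2 (34.6 ± 11.6 CPM per kilobase), Il18r1 (7.65 ± 10.1), Il4ra (6.15 ± 11.4), Csf2rb2 (4.61 ± 5.34), Il3ra (2.98 ± 5.75), Il7r (2.08 ± 4.32), Csf2rb (1.12 ± 1.29), Il5ra (0.338 ± 0.428) and Il1rl1 (0; SD, n = 6 for each). Csf2ra was above Crlf2 in 6 of 6 libraries, and Crlf2 above Il18r1 in 6 of 6. From Il18r1 down to Csf2rb the ranges of neighbours overlapped and each SD was larger than its mean, so that part of the order is not larger than the spread. Lengths are exon unions of GENCODE M21, which may not be the annotation the authors used.

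How often both chains of a receptor were counted in a library depended on the level taken as presence. With 1 CPM as the level for presence, a value chosen after the data were seen, 9 receptors made of 2 chains were scored in each library. Both chains reached it for 3, 4 and 1 of the 9 receptors in A1, A2 and A3, and for 1, 3 and 8 in B1, B2 and B3. B3, with the most, was also the library with the most counts and the most genes detected. The GM-CSF receptor was complete in 4 libraries, A2, A3, B2 and B3, and lacked Csf2rb in A1 and B1. The IL-18 receptor was complete in A1 and in all 3 B libraries, since Il18rap was at 35.7 CPM in B1, 13.6 CPM in B3 and 130 counts, also above 1 CPM, in B2.

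The TSLP receptor had both chains in A1 and B3, and the other 4 libraries had Crlf2 without Il7r. For IL-5, both chains reached the level in B2 and B3, while B1 had Il5ra with Csf2rb under 1 CPM. The IL-3 receptor was complete in A2 and B3, as were both forms of the IL-4 receptor. In B1, Csf2rb2 was at its highest while Il3ra was at 0. The IL-33 receptor was complete in 0 of 6 libraries. With more than 3 counts in place of 1 CPM, the receptors complete in a library numbered 6, 6 and 4 in A and 3, 7 and 8 in B, and with 10 CPM they were 3, 4 and 0 in A and 1, 0 and 4 in B. No test was made of these counts.

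**Figure D4:**
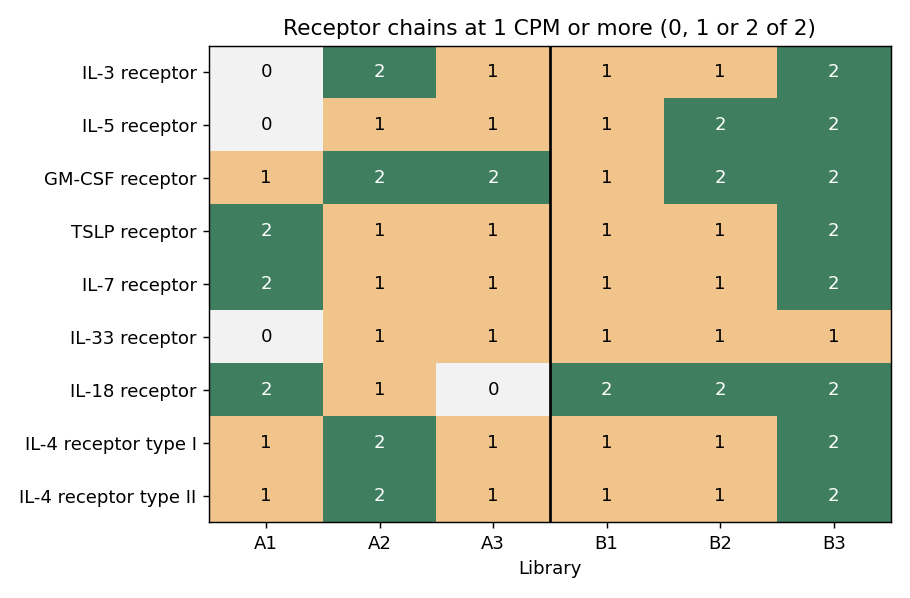
Number of chains (0, 1 or 2) at 1 CPM or more for each receptor (rows) in each library (columns); the line parts set A from set B. For the IL-3 receptor the beta chain may be Csf2rb or Csf2rb2. B3 has both chains of 8 receptors, the IL-33 receptor is incomplete in every library, and the IL-18 receptor is complete in all of B.

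Whether receptor expression differed between the sets was tested over all genes. Of the 10 members, 7 passed the filter on low counts and 0 passed the threshold (adjusted p under 0.05 by edgeR over all genes), beside 0.0217% of the 9196 genes tested. At an unadjusted p under 0.05 there was 1 member, Il5ra, beside 6.36% of genes. DESeq2 called 1 of the 7, Il5ra (6.47% of genes), and limma-voom called the same 1 (2.2% of genes). DESeq2 gave no adjusted p for 882 of the 9196 genes, Il3ra and Il18r1 among them. Of the fitted differences, 4 were above 0 and 3 below, and the median log2 fold change was 0.07, beside -0.06 for all genes tested. Il3ra, Csf2rb, Csf2rb2 and Il18r1 had standard errors of 2.24 to 3.55 on the log2 scale, so even many-fold differences in them would not have been detectable with these libraries.

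**Figure D5:**
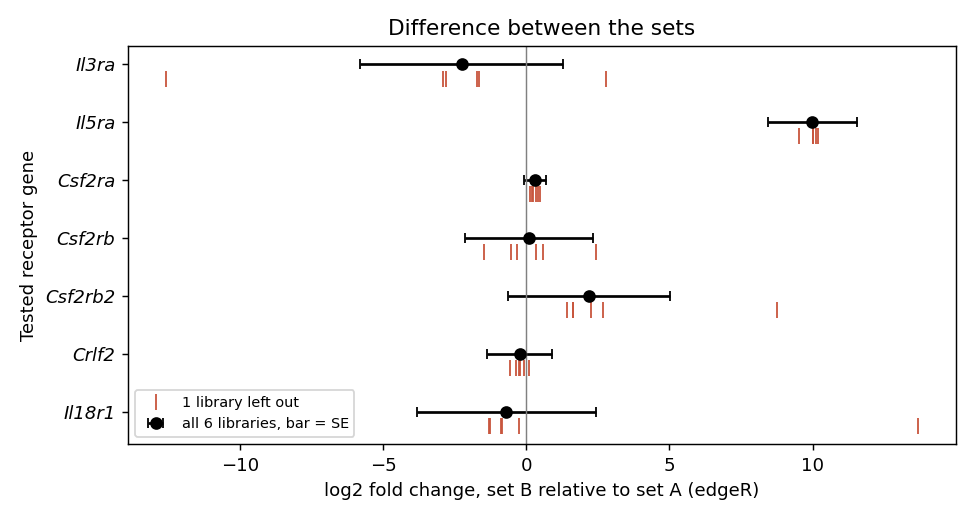
Log2 fold change of set B relative to set A (x axis) for the 7 tested receptor genes (y axis), with the standard error from edgeR, and the same value with each library left out in turn. Csf2ra and Crlf2 lie near 0 with narrow spread, Il5ra lies near 10, and Il3ra, Csf2rb2 and Il18r1 shift by several units when 1 library is left out.

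Chains that pair with the members, and related and decoy receptors, formed a list of 18 genes, of which 12 were tested and 0 were called by edgeR (median log2 difference -0.21, beside -0.06 for all genes). Il2rg, the common gamma chain, was the most abundant. Its level was 1444, 2164 and 1241 CPM in A1, A2 and A3, and 545, 1127 and 1145 CPM in B1, B2 and B3. Every A library was above every B library, as were 3.91% of the genes tested. The log2 difference was -0.89 (with SE 0.36, edgeR adjusted p = 0.769, 0.0251 by DESeq2 and 0.558 by limma-voom). T, NK and B cells use this chain. The T cell sum given above was higher in every A library, while the NK and B cell sums overlapped between the sets, and the part of these cells in the Il2rg counts was not tested. Csf3r, the G-CSF receptor, was at 154 ± 137 CPM across A and 305 ± 136 in B, and Il13ra1 at 173 ± 235 and 138 ± 75.4 (SD, n = 3 each).

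Ligands of these receptors were seldom counted. Of 10 ligand genes, 7 (Il3, Il5, Csf2, Il7, Il33, Il13 and Il9) had 0 counts in all 6 libraries. Il18 was the only one tested, at 0.200, 52.3 and 0.173 CPM across A and 68.0, 0.101 and 0 CPM in B (log2 fold change 0.28 with SE 3.41, edgeR adjusted p = 1.00).

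Of the 11 kinases and transcription factors of the JAK and STAT families, 8 were tested, 0 were called, and 7 of the 8 fitted values lay below 0 (median -0.77). Jak1 was at 243 ± 218 CPM across A and 101 ± 19.4 in B, and Stat3 at 165 ± 54.4 and 88.4 ± 27.3 (SD, n = 3 each). Jak2, the kinase bound by the beta chains, was at 32.4, 69.3 and 14.0 CPM across A and 0.0804, 0.0676 and 8.02 CPM in B. Every A library was above every B library, as were 3.91% of the genes tested, and the log2 difference was -3.88 (with SE 2.53, edgeR adjusted p = 1.00). Jak2 was named for its place beside the beta chain after its values were seen.

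The MyD88 branch, which serves the IL-33 and IL-18 receptors, had 14 genes, 12 tested and 0 called (median -0.07). Myd88, the adaptor itself, was at 315 ± 132 CPM across A and 410 ± 104 in B. Ikbkb, a kinase that frees NF-kB, was at 194 ± 97.0 and 199 ± 164, and Irak3, an inhibitory member of the IRAK family, at 115 ± 92.6 and 68.9 ± 69.6 (SD, n = 3 each). DESeq2 called 1 gene of this list, the kinase Chuk, at 0.0726, 0 and 0 CPM across A and 2.15, 130 and 54.1 CPM in B (adjusted p = 8.40e-06 by DESeq2, 0.508 by edgeR).

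Among 17 adaptors and kinases of cytokine receptors 15 were tested and 0 called (median -0.04). Lyn, a Src family kinase, was at 410 ± 99.3 CPM across A and 365 ± 50.2 in B, and the adaptor Grb2 at 178 ± 249 and 225 ± 36.4 (SD, n = 3 each). Of 12 inhibitors 10 were tested and 0 called (median 0.09). Ptpn6, the phosphatase SHP-1, which dampens signals of the shared beta chain, was at 1471 ± 176 CPM across A and 1549 ± 59.4 in B (log2 fold change -0.04 with SE 0.18, edgeR adjusted p = 1.00). Ptpn1 was at 304 ± 208 and 471 ± 84.5, and Pias1 at 83.6 ± 96.0 and 100.5 ± 87.1 CPM (SD, n = 3 each).

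Targets of STAT5 and STAT6 gave no call either, with 13 of 14 tested and a median of -0.81. Id2, a transcription regulator, was at 622 ± 231 CPM across A and 403 ± 97.8 in B. The cyclin Ccnd3 was at 584 ± 163 and 284 ± 153 (log2 fold change -1.15 with SE 0.46, edgeR adjusted p = 0.721). The survival factor Mcl1 was at 215 ± 200 and 379 ± 77.7 (SD, n = 3 for each). Cish, a feedback inhibitor induced by STAT5, had counts in B3 alone, at 12.9 CPM.

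Csf2ra, Csf2rb and Crlf2 were the members with more than 3 counts in every library, and their patterns over the 6 libraries were set against the other genes of the lists with a mean of at least 10 CPM (136 or 137 genes). Likeness was Pearson's r of log2(CPM + 1), given as a description, since all values come from the same 6 libraries and their depths. The highest of so many values over 6 libraries can be large without any link between the genes. For Csf2ra the most alike were Ms4a6c (r = 0.885), Rora (0.849) and Chuk (0.818). Rora was at 0 in all of A, with a mean of 21.8 CPM in B. For Csf2rb they were Stat5b (0.922), Cx3cr1 (0.899) and Ptpn2 (0.868). For Crlf2 they were Syk (0.945), Ikbkb (0.885) and Ms4a6c (0.794).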

How the data were processed

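Sorted cells were sequenced with Smart-seq2 as paired reads, per the labels' protocols (the sample descriptions also name 10x Genomics). The authors deposited raw counts per Ensembl gene, 1 column per library. Cutadapt 1.9, HISAT2 2.2.1 and DESeq2 are named in the submitters' processing notes, with no role. The sources used here do not name the counting program, genome build, annotation or strand setting. The counts sum to far more than the read yield per sample stated in the labels, and Smart-seq2 carries no molecular identifiers, so intervals and floors cover counting error only. Symbols matched 55141 of 55401 identifiers.

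Set B was compared with set A by edgeR 4.0.16 in R 4.3.3 (filterByExpr, TMM, glmQLFit with robust=TRUE, glmQLFTest), with Benjamini-Hochberg adjustment over all 9196 genes tested and a threshold of 0.05. Each standard error is the size of the log2 fold change over the square root of F. Alternatives were DESeq2 1.42.0, limma-voom (limma 3.58.1), RLE or library-size scaling, a stricter filter or none, robust=FALSE, a replicate block, counts divided by 4, and each library left out. The members, the 7 pathway and 12 marker lists, and the tests were chosen with earlier results of these data known. All members were named. Of each pathway list, the 3 tested genes with the highest mean and any called were named, of each marker list the sums and genes at 0, and for members counted in every library the 3 most alike genes of the lists. Some genes that this rule names are not reported here. Others were named after their values were seen. Platelet, erythroid, dendritic cell and neutrophil marker sums are given with the other observations.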

Additional observations from a re-analysis of the deposited data

How the results depend on the processing

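The count of genes called over the whole table was 2 by edgeR (Mcpt8 and Prss34). It was 595 by DESeq2, 202 by limma-voom and 0 with a replicate block. With 1 library left out it was 0 to 1. Members called went from 0 to 1 (Il5ra) with DESeq2 and to 1 (Il5ra) with limma-voom, and stayed at 0 elsewhere. The stricter filter left 4 members to test, without Il5ra. Of 102 alternative fold changes of tested members, 10 changed sign and 92 did not. Csf2rb changed to -0.14 with RLE scaling and -0.14 with DESeq2, and ran from -1.50 to 2.43 with 1 library left out. Il18r1 changed to 7.24 with limma-voom and 10.26 with a replicate block, and ran from -1.30 to 13.68 with 1 library left out, where the highest is set by 2 A libraries at 0 and is no bound. Il3ra ran from -12.61 to 2.79 and Crlf2 from -0.57 to 0.083 with 1 library left out. Csf2rb2 ran from 1.40 to 8.76 (the highest without A replicate 3) without a change of sign. The cause of these changes was not tested. The Csf2rb2 share differed by 26.9 to 71.2 percentage points with 1 library left out, and by 41.8 as paired differences (replicate block, exact sign-flip p = 0.5, smallest possible 0.25). Deviations from the set means correlated at 0.01, -0.03 and 0.01 for replicate numbers 1, 2 and 3 over 7803 genes. With so many values near 0 in these libraries, such correlations cannot decide whether the numbers pair the libraries. Members called by edgeR were 0 with and without the block, while the count over all genes went from 2 to 0. The median of all genes was -0.06 with TMM, -0.16 with RLE and 0.04 with library size alone. At a mean of 1 to 100 CPM, 47.7% of the values in the table were under 1 CPM, which limits what these fits can show.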

Other observations

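Il15ra, the private chain of the IL-15 receptor, stood apart in the same direction as Il5ra, as did 10.2% of the genes tested, and at a higher level. It was at 0.0726, 0.0757 and 0.108 CPM in A1, A2 and A3, and at 57.3, 35.2 and 17.3 CPM in B1, B2 and B3. The log2 difference of 8.60 (SE 2.21) did not pass by edgeR (adjusted p = 0.508), and passed by DESeq2 (adjusted p = 2.43e-07) and limma-voom (adjusted p = 0.0429). Il1r2, a decoy receptor for IL-1 that neutrophils are known to carry, was at 0.435, 80.5 and 28.1 CPM in A and at 218, 279 and 107 CPM in B (log2 fold change 2.39 with SE 1.48, edgeR adjusted p = 1.00). Neutrophil markers summed to 2400 to 9449 CPM in A and 12286 to 22712 CPM in B, with Ly6g at 0 in all 6 libraries. The largest parts on average were S100a8 (means of 3697 CPM across A and 9452 in B) and S100a9 (1817 and 3777). The part of neutrophils in the Il1r2 counts was not tested. Il21r went the other way, at 0, 66.0 and 111 CPM in A and under 1 CPM in all of B (log2 fold change -7.24 with SE 3.32, edgeR adjusted p = 0.930 and 0.0109 by DESeq2). These genes were named after their values were seen.

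Among the other cell types, dendritic cell markers summed to 3821 to 6362 CPM in A and 2778 to 3272 CPM in B, and nearly all of it was the class II genes H2-Aa and H2-Ab1, which B cells and monocytes also express. Of the other members, Siglech was at 1.18 ± 0.557 CPM across A and 1.23 ± 0.417 in B (SD, n = 3 each). Xcr1 was at 16.9 CPM in B2 and under 0.1 CPM elsewhere. Lower means in B were seen for Flt3 (29.4 CPM across A, 0 in B), Cd209a (111 and 32.7) and Zbtb46 (1.43 and 0). Flt3, which was not tested, was higher in every A library than in every B library, beside 3.91% of the genes tested. Cd209a and Zbtb46 overlapped between the sets. Platelet markers summed to 859 to 1455 CPM in A and 536 to 912 CPM in B. Erythroid markers summed to 270 to 630 CPM in A and 109 to 179 CPM in B, with Alas2 at 0 throughout.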
